A study of Mus musculus with 4 samples.

Results

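The LC3 and GABARAP proteins, the ATG4 proteases and ATG3 form the small conjugation system at the heart of autophagosome formation. This group was taken as 10 named mouse genes: Map1lc3a and Map1lc3b (LC3), Gabarap, Gabarapl1 and Gabarapl2 (GABARAP), Atg4a, Atg4b, Atg4c and Atg4d (ATG4), and Atg3. Deposited peaks with a size were found for 5 of these genes, in an autophagy table of 22 genes. A longer list of genes related to differential peaks, with 9225 distinct gene IDs, held 6 of them.

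The cells were MIN6, an established beta-cell line from a mouse insulinoma, labelled C57BL/6. One arm had received a control vector and the other a GR expression vector. GR is an abbreviation that the labels do not spell out, and the glucocorticoid receptor is its usual reading. RNA was taken 24 hours after transfection with 10 µg of plasmid per dish. N6-methyladenosine (m6A), a methyl mark on adenosines of messenger RNA, was profiled by immunoprecipitation (IP) of fragmented RNA, with 1 input and 1 IP library per arm. All libraries came from the same line, transfection was transient, and no label mentions a glucocorticoid ligand.

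No values per library were used here, so neither the depth nor the RNA level of any gene can be given, and no difference below has a replicate check or an error. Every fold is the authors' own log2 fold change of a peak, GR against control as the table is named, and what it was normalised to is not stated. A lower peak and less RNA of that gene in the IP therefore cannot be told apart. The RNA level of cell type markers could not be checked, and presence in the gene list, which names genes related to differential peaks, does not measure it. That list held 6 of 7 beta-cell markers (Ins1, Pdx1, Mafa, Nkx6-1, Slc2a2 and Slc30a8, not Ins2), 1 of 3 markers of other islet cells (Gcg), and 0 of 5 exocrine, ductal and blood markers, beside 25.2% of all 21900 protein-coding genes.

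LC3 and GABARAP proteins are ubiquitin-like. ATG4 proteases trim their C-terminus to expose a glycine, the E1-like enzyme ATG7 and the E2-like enzyme ATG3 then attach them to phosphatidylethanolamine in the growing membrane, and ATG4 can also take them off again. On the membrane they bind cargo receptors and help the autophagosome to close and fuse. In mRNA, m6A lies mostly near the stop codon and in the 3' UTR, and reader proteins that bind it affect the decay and translation of the transcript.

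The start regions of 4 of these genes are shown to look for 2 short motifs. Map1lc3b and Gabarapl1 stand for the LC3 and GABARAP branches with deposited peaks, and Atg4d and Atg3 are the members with a match. Capitals mark matches to AGAACA or TGTTCT, a glucocorticoid receptor half-site read on both strands, or to CACGTG, the core bound by TFEB and other E-box factors, which reads alike on both strands. The sequences are from RefSeq (GRCm38.p6), all on the plus strand, from the 250 bases before a transcript start without any part inside a protein-coding gene.

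Map1lc3b, chr8:121590188-121590437: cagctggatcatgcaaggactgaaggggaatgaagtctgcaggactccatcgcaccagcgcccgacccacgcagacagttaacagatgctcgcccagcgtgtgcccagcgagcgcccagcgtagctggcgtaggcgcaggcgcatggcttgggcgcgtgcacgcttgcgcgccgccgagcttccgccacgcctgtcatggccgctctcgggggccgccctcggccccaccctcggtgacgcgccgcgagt
Gabarapl1, chr6:129532942-129533191: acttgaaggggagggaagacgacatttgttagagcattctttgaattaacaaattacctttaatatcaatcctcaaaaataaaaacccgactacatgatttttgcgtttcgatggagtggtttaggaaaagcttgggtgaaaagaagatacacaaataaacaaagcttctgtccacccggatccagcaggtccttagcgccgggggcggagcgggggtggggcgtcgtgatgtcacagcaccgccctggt
Atg4d, chr9:21265035-21265204: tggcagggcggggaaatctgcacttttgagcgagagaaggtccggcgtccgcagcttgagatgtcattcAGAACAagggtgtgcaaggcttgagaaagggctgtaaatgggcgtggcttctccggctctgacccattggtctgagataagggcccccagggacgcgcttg
Atg3, chr16:45158674-45158828: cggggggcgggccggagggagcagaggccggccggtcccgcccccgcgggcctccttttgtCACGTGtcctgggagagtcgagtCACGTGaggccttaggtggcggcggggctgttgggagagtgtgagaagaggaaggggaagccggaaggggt

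The reference held 11 such windows for 9 of the 10 members, Map1lc3a being the one without. The half-site was in 1 of the 11 windows, that of Atg4d, against 16.1% of 32851 windows of the same length over all genes. CACGTG was in 1 window, that of Atg3, which carries it 2 times, against 6.02% of all windows. A match describes these letters and is not a measured binding site. The median over all windows is 52.4% G or C. The Map1lc3b window lies above it (69.6%) and the Gabarapl1 window below it (46.8%).

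The 2 LC3 genes had 3 deposited peaks, all lower with GR. Map1lc3b encodes LC3B, the form most used to follow autophagosomes. Its first peak covers 203 bases of chromosome 8 (mm10, 121596702 to 121596904) with a log2 fold change of -1.48, or 2.80-fold lower. Its other peak lies 766 bases further downstream (173 bases, 121597671 to 121597843) with -1.75, or 3.36-fold lower. The 2 Map1lc3b values differ by 0.27 on the log2 scale, the downstream peak being the lower one. Both peaks begin, centre and end in the last exon by the file's own annotation.

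Map1lc3a encodes LC3A, a close paralogue of LC3B. Its single peak, 139 bases on chromosome 2 (155276486 to 155276624), had a log2 fold change of -1.56, or 2.95-fold lower, between the 2 values of Map1lc3b. The mean of Map1lc3b, -1.62, was 0.06 below Map1lc3a on the log2 scale, and the sign of that difference depends on which Map1lc3b peak is used. In size the 2 LC3 genes are therefore not told apart by these values. In place they differ by their annotation: the Map1lc3a peak runs from the 5' UTR into exon 1, whereas the Map1lc3b peaks lie in the last exon. The Map1lc3b peaks are 1856 and 917 bases before the gene end. The Map1lc3a peak starts 122 bases after the gene start, if the plus strand inferred from its 5' UTR label is right.

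Of the 3 GABARAP genes, only Gabarapl1 had a deposited peak. GABARAPL1 is, like its relatives, a membrane-anchored adaptor of the autophagosome. The peak covers 305 bases of chromosome 6 (129541099 to 129541403) and had a log2 fold change of -1.29, or 2.45-fold lower. This value is closer to 0 than that of any LC3 peak, by 0.19 for the nearest one, though with no error it is not known whether such a gap exceeds the noise. By the file, where its first 2 parts are written as 1 word, the peak begins in the last intron, has its centre in the last exon and ends in the 3' UTR, and it is the 1 peak of the 31 in the autophagy table with an intron part. A lncRNA gene, 1700101I11Rik, overlaps Gabarapl1 in the reference but not at the peak.

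The 3 peaks of ATG4 genes ran from -2.17 to -0.90, a wider range than the 3 LC3 peaks (-1.75 to -1.48). GABARAP genes had only 1 peak, and no value has an error. Atg4c had the lowest peak of all members, in exon 5 (180 bases, chromosome 4, 99221253 to 99221432), with a log2 fold change of -2.17, or 4.51-fold lower. Its other peak, 679 bases across the last exon into the 3' UTR (99258458 to 99259136), was at -1.47, or 2.78-fold lower. The pair differs by 0.70 on the log2 scale, or 1.62-fold, across 37025 bases of the gene, and the upstream peak is the lower one. That order is the opposite of Map1lc3b.

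Atg4a, the ATG4 that acts mainly on GABARAP proteins, had the mildest change of the group. Its peak, from the last exon into the 3' UTR (242 bases, chromosome X, 141163271 to 141163512), was at -0.90, or 1.87-fold lower. The mean of the Atg4c peaks, -1.82, was 0.92 below it on the log2 scale, or 1.89-fold, and Atg4c was the lower of the 2 with either of its peaks. Psmd10 overlaps Atg4a in the reference, but not at the peak. Atg4b, the protease with the broadest activity on LC3 and GABARAP proteins, had no peak in the table, nor did Atg4d, Atg3, Gabarap or Gabarapl2.

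**Figure D1:**
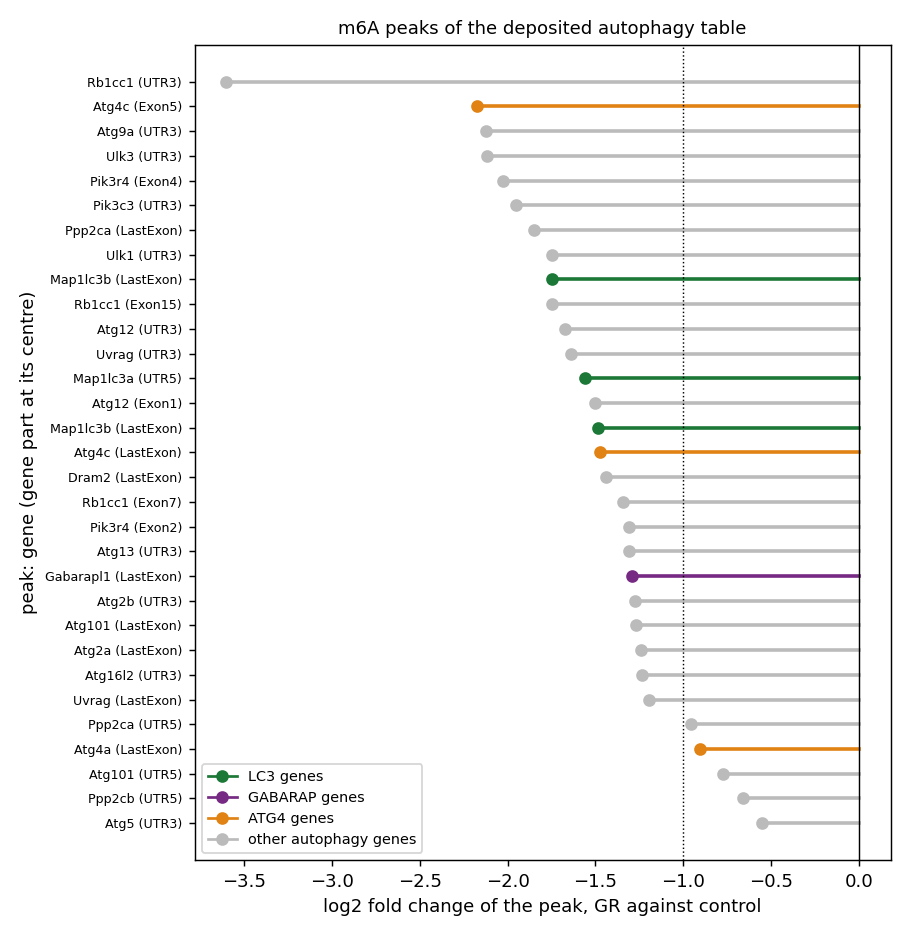
Each line ends at the log2 fold change (x axis, GR against control) of 1 of the 31 peaks in the autophagy table, ordered from the lowest, with LC3, GABARAP and ATG4 genes in colour and the other genes in grey. The members run from -2.17 (Atg4c, exon 5) to -0.90 (Atg4a), and the dotted line marks -1.

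Across the group, 7 of 7 peaks were lower and 0 higher, and 6 of 7 were at or below a log2 fold change of -1, against 83.9% of the 31 peaks of the table. All 31 peaks of the table were lower, so the direction is not particular to these genes. The authors put this table together around autophagy, so it is no random sample of peaks. Whether higher peaks could have entered it is not known. The median was -1.48 for the 7 peaks and -1.39 for the 24 peaks of the other genes. Ranked from the lowest, the members stood at places 2 (Atg4c), 9 (Map1lc3b), 13 (Map1lc3a), 15 (Map1lc3b), 16 (Atg4c), 21 (Gabarapl1) and 28 (Atg4a) of 31. By gene mean, the order from lowest was Atg4c (-1.82), Map1lc3b (-1.62), Map1lc3a (-1.56), Gabarapl1 (-1.29) and Atg4a (-0.90). These values come without an error, so no neighbours in this order can be said to differ.

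The genes with means closest to the median of the group were Dram2 (-1.44), a lysosomal membrane protein, Uvrag (-1.42), a subunit of the class III phosphatidylinositol 3-kinase (PI3K) complex, and Ppp2ca (-1.40), a catalytic subunit of protein phosphatase 2A. They lay within 0.05, 0.06 and 0.08 of it on the log2 scale. Dram2 had 1 peak, but the other means are each of 2 peaks on either side of that median. These were -1.20 and -1.64 for Uvrag, and -0.95 and -1.85 for Ppp2ca. The likeness therefore rests on averages in a single comparison.

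The 7 peaks were mostly narrow and near the 3' end. Their median width was 203 bases, from 139 to 679, against 314 bases, from 130 to 1866, for the other genes. The centre was in the last exon for 5 of 7, in exon 5 for 1 (Atg4c) and in the 5' UTR for 1 (Map1lc3a). None had the 3' UTR label at its centre, against 11 of the 24 peaks of the other genes, although 3 of the 7 had it at their end. A last exon can hold 3' UTR, so these labels do not show that the member peaks lie elsewhere. Along the genes, introns included, the centres lay at 11.2% for Map1lc3a, 76.5% and 87.9% for Map1lc3b, 88.2% for Gabarapl1, 99.6% for Atg4a, and 29.8% and 64.4% for Atg4c. The place of Map1lc3a depends on a strand that was inferred from its 5' UTR label. The bounds of Atg4c span 14 RefSeq transcripts, and its last-exon peak lies 38122 bases before the end of the gene bounds.

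**Figure D2:**
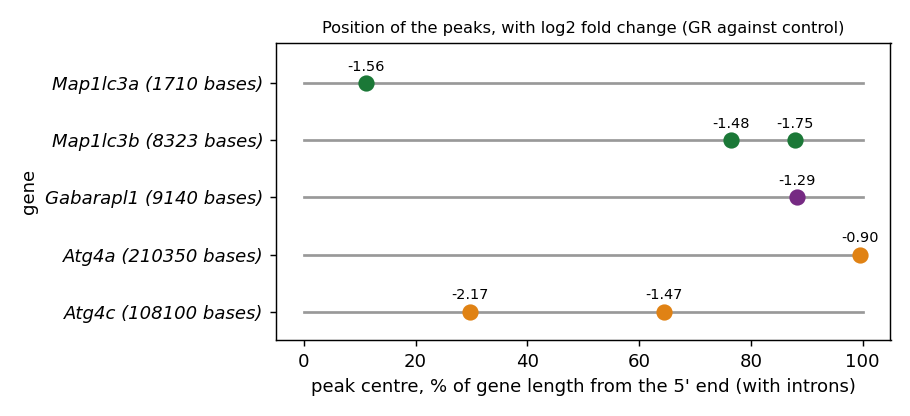
The 7 peaks are placed by their centre along each gene (x axis, percent of gene length from the 5' end, introns included), with the log2 fold change above each point. The Map1lc3a peak is near the start, on a strand inferred from its 5' UTR label. The Map1lc3b, Gabarapl1 and Atg4a peaks are past 75% of the gene, and the Atg4c peaks are further in.

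The second table gives a gene ID, a symbol and protein domain names per line, with no position, size or direction. Nothing in it explains why a gene can fill several lines. Of the 10 members, 6 were listed (60.0%, exact Clopper-Pearson 95% interval 26.2% to 87.8%, counting error only), against 25.2% of 21900 protein-coding genes. The members were not a random draw of genes and were chosen with earlier results of these data known. How many of the protein-coding genes are expressed in these cells is not known either. The interval is therefore no test against that share, and no test is given. Listed were Map1lc3a, Map1lc3b, Gabarap, Atg4c, Atg4d and Atg3. By role these are 2 of 2 LC3 genes, 1 of 3 GABARAP genes, 2 of 4 ATG4 genes and Atg3, the E2-like enzyme.

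The tables singled out different paralogues. Map1lc3a, Map1lc3b and Atg4c were in both. Gabarapl1 and Atg4a had deposited lower peaks and no line in the gene table. Gabarap, Atg4d and Atg3 had lines and no deposited peak, so their direction is not known. Gabarapl2, known also as GATE-16, and Atg4b were in neither. Since Gabarapl1 and Atg4a are missing from the gene table despite their peaks, a missing line for Gabarapl2 or Atg4b does not show that these transcripts kept their m6A.

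Map1lc3b had 14 of the 21 lines of the group. Map1lc3a and Atg4d had 2 lines each, and Gabarap, Atg4c and Atg3 had 1 each. Among 5526 listed protein-coding genes the median was 1 line, 80.6% were on 1 or 2 lines, and 8 had more lines than Map1lc3b. Of these 8, Pcdha11, Pcdhac2, Pcdhgc3, Pcdhgc4, Pcdhgc5, Pcdhga5 and Pcdhac1 are clustered protocadherin genes, and the other is Zbed6. In Map1lc3b and Atg4c the lines did not follow the peaks: each gene had 2 peaks, with 14 lines and 1 line. Nor did the lines follow the number of RefSeq transcripts, which is 2 for Map1lc3b and 14 for Atg4c. A relation over all listed genes was not tested.

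**Figure D3:**
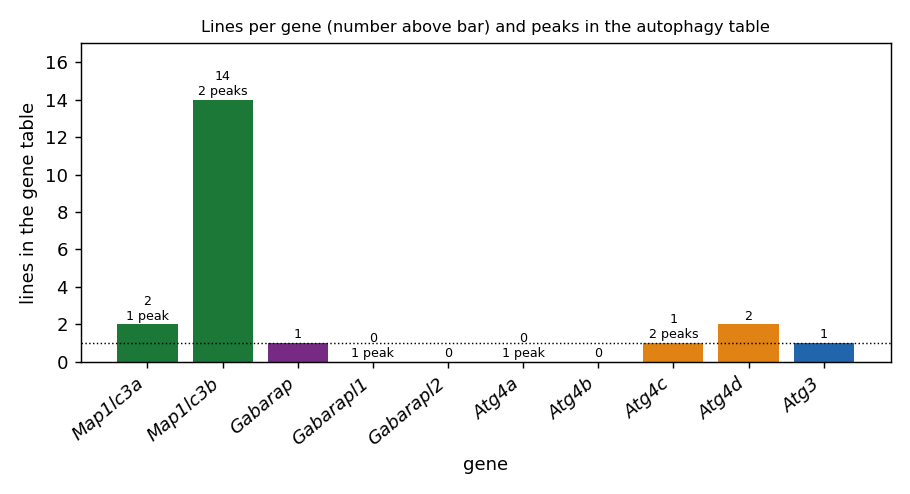
Bars give the number of lines (y axis) of each of the 10 genes in the gene table, coloured by role, with the number of deposited peaks written where there are any. Map1lc3b stands at 14 and no other member above 2, and the dotted line is the median of 1 line over listed protein-coding genes.

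**Figure D4:**
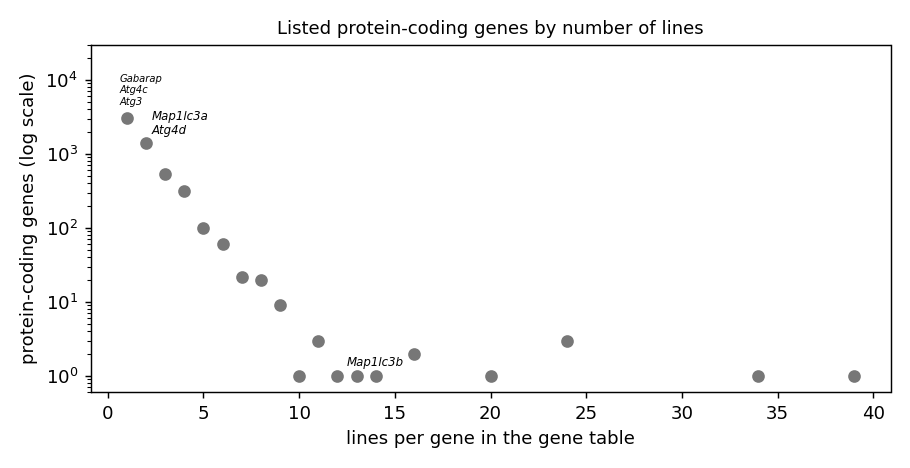
Points give the number of protein-coding genes (y axis, log scale) with each number of lines (x axis) in the gene table. The 5 other listed members sit at 1 or 2 lines with most genes, and Map1lc3b lies at 14 in the sparse upper tail.

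Domain names in the table brought in no further gene. The Atg8 ubiquitin-like domain name was on 3 gene IDs (Map1lc3a, Map1lc3b and Gabarap), the peptidase C54 name of ATG4 proteases on 2 (Atg4c and Atg4d), and the ATG3 names on 1. Overlapping genes and copies can share reads with the members, and whether the counting used strand is not stated. Zcchc14, with 4 lines, overlaps the bounds of Map1lc3b but neither of its peaks, and Kri1, with 2 lines, overlaps Atg4d, which also had 2. RefSeq names 15 pseudogene copies, 8 of Map1lc3, 6 of Gabarapl2 and 1 of Atg4a. Of the 12 with a gene ID, 1 was listed, Gm6055, a Map1lc3 copy on chromosome 14, with 1 line. Over all gene IDs of the reference, 16.6% were listed. The share of copies in the values of Map1lc3a and Map1lc3b was not tested.

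Other steps of autophagy were set beside these genes. Of 38 genes in 5 further groups, 13 had deposited peaks, all lower, 13 were in the gene table, 5 in both and 17 in neither. The share of all protein-coding genes in the gene table was 25.2%, and these counts were not tested against it. The PI3K complex, which makes the lipid that marks the forming membrane, had a median of -1.64 over 5 peaks. The ULK kinase complex, which starts autophagy, had -1.34 over 7 peaks, with the lowest value of the table (Rb1cc1, -3.60). The ATG12 conjugation genes, whose product works as the E3 for LC3, had -1.37 over 4 peaks, and the ATG9 and ATG2 lipid supply group had -1.28 over 3. All of these medians lie between the highest and lowest member peaks.

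Other genes of the conjugation steps were in part unlisted. Atg7, the E1-like enzyme that charges ATG3, was in neither table, nor were Atg10 and Atg16l1 of the ATG12 conjugation genes. Atg5, Atg12 and Atg16l2 had lower peaks. Of the 13 receptors and adaptors that LC3 and GABARAP proteins bind, 0 had a peak in the autophagy table, which covers 22 genes, and 5 were in the gene table, where 25.2% of protein-coding genes are. These were Sqstm1 (p62, a ubiquitin-binding cargo receptor) and Bnip3l (a mitophagy receptor) with 2 lines each, and Tollip, Fundc1 and Plekhm1 with 1 each. Nbr1, Optn and Tax1bp1 were among the 8 in neither.

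**Figure D5:**
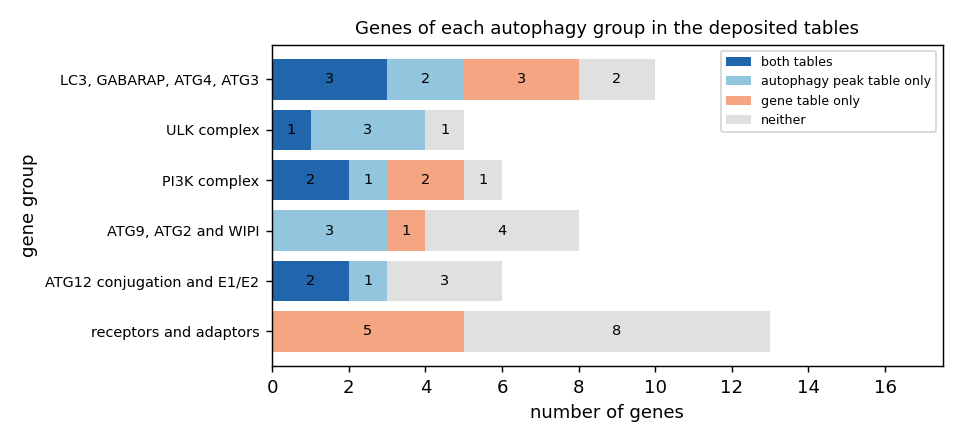
Stacked bars give the number of genes (x axis) of each autophagy group that were in both tables, in the peak table only, in the gene table only or in neither. The LC3, GABARAP, ATG4 and ATG3 bar splits into 3, 2, 3 and 2 genes, and the receptors and adaptors have none with a deposited peak.

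In the authors' deposited table of Gene Ontology (GO) terms, 291 of 16568 terms had at least 1 member in their gene list. The deposited p-value of every term is 1, so the terms describe annotation and show no enrichment. The 6 members in these lists were the same 6 as in the gene table. Gabarap and Map1lc3b were in 141 terms each, Map1lc3a in 133, Atg3 in 106, Atg4d in 52 and Atg4c in 49. Map1lc3b shared 103 terms with Gabarap (73.0% of either list) and 88 with Map1lc3a (62.4% of its own terms, 66.2% of those of Map1lc3a). Atg4c and Atg4d shared 36 terms (73.5% and 69.2%).

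All 6 stood together in 12 terms. The smallest were autophagy and process utilizing autophagic mechanism, each with 132 of 367 genes listed (36.0%) in the authors' deposited table. The next were cellular catabolic process (638 of 1933, 33.0%) and catabolic process (713 of 2183, 32.7%), then cellular metabolic process (3137 of 9922, 31.6%) and cytoplasm (3351 of 10665, 31.4%) in the authors' deposited table. Among these 6 terms alone, the share fell from 36.0% to 31.4% as the term size rose. That order does not hold over all the terms named below.

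The 6 smallest terms with at least 2 members, by background genes, held LC3 and GABARAP genes. Cellular response to nitrogen starvation and cellular response to nitrogen levels each listed 4 of 10 genes in the authors' deposited table, and 3 of the 4 were Map1lc3a, Map1lc3b and Gabarap. Autolysosome had 6 of 11, secondary lysosome 6 of 13 and autophagosome maturation 12 of 31 in the authors' deposited table, each with both LC3 genes. Autophagosome membrane had 10 of 31 with all 3 genes. Over the whole table the authors' deposited totals are 10022 of 20770 genes (48.3%), while the term lists together hold 5409 distinct gene IDs (26.0% of 20770). With such totals and the same p-value for every term, these shares set no term apart. Cysteine-type peptidase activity, chosen after its values were seen, held Atg4c and Atg4d among 53 of 184 genes (28.8%) in the authors' deposited table.

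Only 3 of the 290 KEGG pathways listed a member. An adjusted p below 0.05 is common in the authors' deposited table, which has it for 194 of the 290, so passing does not set a pathway apart. Regulation of autophagy had 11 of 40 genes, of which 4 were Gabarap, Atg4c, Atg4d and Atg3, and the authors' deposited table gives it p = 0.166, or 0.213 after adjustment. Gabarap was the one member in the other 2. FoxO signaling, a pathway that controls metabolism and stress genes downstream of insulin, had 63 input IDs (59 distinct Entrez genes) against 135, and the authors' deposited table gives 9.47e-08 as its adjusted p, at place 35 by p-value. For GABAergic synapse the authors' deposited table has 27 against 89, with 0.0331 as the adjusted p, at place 181. Map1lc3a and Map1lc3b, the LC3 genes with lower peaks, were in no pathway of that table, although both were in the gene table.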

How the data were processed

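m6A was compared in MIN6 cells with control or GR vector, with 1 input and 1 IP library each, and 4 deposited files of the comparison were used. Per the submitters' processing notes, which give no roles, the tools included BWA (version 0.7.12) and HOMER (version 4.9.1), and the build was mm10. The caller of differential peaks, its thresholds and the depth are not given in the sources used here. The autophagy table holds log2 fold changes deposited by the authors, read by splitting on white space with symbols carried down. GO and KEGG tables hold p-values and gene numbers deposited by the authors. Overflow lines of GO lists were joined, after which 16568 of 16568 terms held as many IDs as deposited.

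Members were matched by Ensembl ID, and chromosomes and gene bounds came by symbol from RefSeq (GRCm38.p6, the assembly behind mm10). Strand came from the promoter table, or for Map1lc3a, which has no entry there, from its 5' UTR peak lying near the lower gene bound. No test was possible, so counts, medians and an exact 95% interval are given (Python 3.11.15, SciPy 1.17.1). Members and lists were chosen with earlier results of these data known. GO terms named were the 6 with most members and the 6 smallest with at least 2. The 3 genes nearest to the median and all KEGG pathways with a member were also named by rule. Peak and protein sequences were not used here.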

Additional observations from a re-analysis of the deposited data

How the results depend on the processing

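The median of the member peaks (-1.48) was -1.56 with the mean or with the largest absolute fold of each gene, -1.52 for LC3 and GABARAP genes alone and -1.47 for ATG4 genes alone. Without Map1lc3b it was -1.47, and without Gabarapl1 or Atg4a -1.52. The count of 7 lower peaks was 6 at a limit of -1, 5 as genes and 7 after merging. Each of these settings keeps, drops or groups values of 1 table with no higher peak, so they say nothing about stability. Map1lc3b minus Map1lc3a (-0.06 on the log2 scale) was -0.19 with the largest and 0.0778 with the smallest absolute fold of Map1lc3b, a change of sign. Atg4c minus Atg4a (-0.92) was -1.27 and -0.57. Both settings were chosen after seeing the data.

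The 6 members in the gene table were 3 with at least 2 lines, since Gabarap, Atg4c and Atg3 have 1 line. Counts of 4 to 8 came from the other sources of membership. The background of 25.2% was 16.6% over all gene IDs of the reference. The 5 peaks in the last exon by their centre were 2 by their end. GO terms with a member fell from 291 to 112 among terms with 10 to 500 genes. The values limit what can be said: without libraries, no error or depth stands behind any fold. No paired analysis was possible because no library values were used and each group has 1 library.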

Other observations

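Of the 38 genes of the 5 other autophagy groups, 8 had peaks and no line and 8 had lines and no peak, and 17 had neither, where 2, 3 and 2 of the 10 members did. Rb1cc1, a subunit of the ULK complex, had 3 peaks and no line, and Wdr45b, a WIPI protein, had 3 lines and no peak.

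The 14 lines of Map1lc3b in the gene table are identical to each other. The exon 5 peak of Atg4c was lower than its last-exon peak, which is 3.77 times as wide.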
